A study of Mus musculus with 12 samples.

Results

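Immediate early genes are switched on within minutes of a stimulus without new protein synthesis, and activity-regulated genes are the wider set that neurons induce when they fire. The 41 genes described here were taken by symbol from a list of such genes, and all 41 were found among the 23951 rows of each of 3 deposited tables. They fall into 23 transcription factors and other nuclear regulators, and 18 effectors whose products have other roles. RNA came from cortex of C57BL/6 mice that differed in Mir137, which encodes a microRNA abundant in brain. There were 4 libraries from wild-type animals (WT), 4 from heterozygotes (Het, labelled miR-137/+) and 4 from knockouts (KO), so 12 in all. The labels give no age, no treatment and no account of how the allele was made.

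In neurons, calcium entry and growth factor signals reach the nucleus through calmodulin kinases and the MAP kinase cascade. There they act on CREB, which binds the cyclic AMP response element, and on serum response factor, which binds the CArG box. The first genes to respond encode AP-1 proteins (Fos and Jun families), EGR zinc fingers, NR4A receptors and Npas4. These factors then act on later genes, whose products change synapses, are secreted, or dampen the signal, as the dual-specificity phosphatases do. The split used here is by the product's role, and some effectors, such as Arc and Dusp1, are themselves induced without new protein synthesis.

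Each genotype has 1 RPKM value per table, made by the authors from its pooled libraries, so no SD can be given and library depth is unknown. RPKM scales reads by transcript length and by the reads mapped, so levels can be compared between genes. Where WT, Het and KO are given together, WT and Het come from the table of Het against WT and KO from that of KO against WT. The WT values of the 41 genes differed between those tables by at most 0.137%. The words rose and fell are used for genes whose adjusted p (q) is below 0.05 in the authors' deposited table. Nothing in the labels says that libraries came from separate mice, so these p-values measure only the spread between libraries, which may be technical. Mir137 itself was listed at 0 in every table, which checks none of the genotype labels. The labels' protocol speaks of duplicated samples per genotype without saying what was duplicated.

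Promoter sequence was looked at first, because these genes are known for response elements close to their start sites. RefSeq windows on build GRCm38.p6, from 250 bases before to 50 after a start, were found for 32 of the 41 genes (Cyr61 under its current symbol, Ccn1), with 49 windows in all. The CREB half-site TGACG, searched on both strands, lay in at least 1 window of 22 of the 32 (68.8%). Among all 27025 genes with a window the share was 23.05%, and among the 10181 of these at 1 RPKM or more it was 35.2%. By window, 28 of 49 held it (57.1%), against 20.8% of all 32851 windows. The full element TGACGTCA, each copy of which also holds TGACG, was found in 4 of the 32 genes (Arl4d, Btg2, Dusp1 and Maff), or 12.5%, against 2.03% of all genes and 3.58% of expressed genes. The EGR site GCGNGGGCG lay in 9 genes (28.1%, against 6.27% of all and 12.9% of expressed genes). The AP-1 site TGANTCA lay in 2 (6.25%), below the 8.97% of all genes and close to the 5.76% of expressed genes. The CArG box lay in 2, Dusp5 and Egr2 (6.25%, against 1.81% of all and 1.61% of expressed genes). By window the shares were 8.16% for TGACGTCA, 18.4% for GCGNGGGCG, 4.08% for TGANTCA and 10.2% for the CArG box. Over all windows they were 1.79%, 5.55%, 7.81% and 1.63%, in the same order. TGACG was present in 14 of 18 transcription factors and nuclear regulators and in 8 of 14 effectors. The 9 genes without a window, among them Egr1, Egr3 and Arc, were not searched, nor were bases outside the windows. A match is a stretch of letters and shows no binding.

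For the genes that rose in both Het and KO and have a single start window, the 250 bases upstream are printed 5′ to 3′ on the gene's strand. Capitals mark TGACG, TGACGTCA or GCGNGGGCG on either strand.
Fos, chr12:85473640-85473889, plus strand: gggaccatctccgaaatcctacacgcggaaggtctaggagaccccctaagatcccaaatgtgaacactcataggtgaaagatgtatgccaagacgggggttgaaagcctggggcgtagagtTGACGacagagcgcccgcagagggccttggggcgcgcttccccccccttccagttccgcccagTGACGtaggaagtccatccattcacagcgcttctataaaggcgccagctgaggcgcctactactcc
Npas4, chr19:4989972-4990221, minus strand: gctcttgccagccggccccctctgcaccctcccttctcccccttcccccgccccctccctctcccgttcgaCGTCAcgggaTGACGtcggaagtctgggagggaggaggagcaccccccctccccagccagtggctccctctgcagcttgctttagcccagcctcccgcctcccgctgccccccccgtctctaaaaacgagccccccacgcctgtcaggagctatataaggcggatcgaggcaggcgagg
Dusp1, chr17:26508473-26508722, minus strand: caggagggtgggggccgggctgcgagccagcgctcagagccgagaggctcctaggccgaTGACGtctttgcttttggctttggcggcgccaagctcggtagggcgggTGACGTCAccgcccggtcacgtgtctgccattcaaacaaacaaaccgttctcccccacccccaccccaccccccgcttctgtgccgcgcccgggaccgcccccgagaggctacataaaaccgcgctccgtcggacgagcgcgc
Rgs2, chr1:144004150-144004399, minus strand: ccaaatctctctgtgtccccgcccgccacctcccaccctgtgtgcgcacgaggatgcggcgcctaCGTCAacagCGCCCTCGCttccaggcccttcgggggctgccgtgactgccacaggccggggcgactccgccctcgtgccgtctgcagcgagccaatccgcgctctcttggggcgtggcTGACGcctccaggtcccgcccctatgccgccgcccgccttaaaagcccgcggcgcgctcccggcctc
Dusp6, chr10:99262981-99263230, plus strand: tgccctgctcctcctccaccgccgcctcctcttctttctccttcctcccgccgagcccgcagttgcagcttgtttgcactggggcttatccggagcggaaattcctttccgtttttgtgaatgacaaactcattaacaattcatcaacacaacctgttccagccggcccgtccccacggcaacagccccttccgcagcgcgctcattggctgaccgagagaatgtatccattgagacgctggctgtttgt
Counting back from the start, the first base of TGACG stood 129 and 66 bases upstream in Fos, and 179 and 169 in Npas4. In Rgs2 the copies stood 185 and 67 bases upstream, with a GCGNGGGCG match at 176. Dusp1 held TGACG at 191 and, overlapping a further pair of TGACG matches, TGACGTCA at 143, and none of the motifs lay upstream of Dusp6. Across all 32 genes, 8 of 11 that rose in Het or KO held TGACG (72.7%), and so did 14 of the other 21 (66.7%). These shares are a description and were not tested.

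Because the mice differ in miR-137, its mature sequence (RefSeq) is printed with its seed (bases 2 to 8) in capitals. Below it stand the matches to that seed, AGCAATA, in capitals, found in the longest annotated 3′ UTR of each gene (GENCODE M21, build GRCm38).
mmu-miR-137-3p: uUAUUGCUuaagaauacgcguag
Egr2 first site, chr10:67541539-67541545, plus strand: ccatctcaacccttaAGCAATAtgtcc
Egr2 second site, chr10:67541593-67541599, plus strand: tgtcgggcaggacaaAGCAATAttggc
Dusp6, chr10:99266525-99266531, plus strand: gctgtctctagatccAGCAATAggttt
Tiparp, chr3:65553841-65553847, plus strand: gtacatatagacagcAGCAATAttagt
Bdnf, chr2:109725683-109725689, plus strand: atccaaatatggcacAGCAATAAtgat
Coordinates are those of the AGCAATA match. Only Egr2, Dusp6, Tiparp and Bdnf held one, 4 of 41 genes or 9.76%, where 10.9% of 12465 expressed genes did. The median 3′ UTR length was 1200 nt in the 41 genes and 1237 nt in the expressed genes. The match in Bdnf, which starts at base 1531 of 2855, is followed by a further A, as in the 8-base site AGCAATAA. Egr2 and Dusp6 rose in both genotypes, and Tiparp and Bdnf passed the test in neither. Ptgs2, the deepest fall among the 41 genes, held no AGCAATA.

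In WT cortex Vgf, a secreted neuropeptide precursor, was highest at 52.9 RPKM. Jund, a largely constitutive Jun protein, followed at 36.1 RPKM and the secreted pentraxin Nptx2, which clusters AMPA receptors, at 30.6 RPKM. Lowest were Inhba at 0.985, Atf3 at 0.918 and Egr2 at 0.547 RPKM. Transcription factors and nuclear regulators had a median WT level of 7.76 RPKM and effectors 9.08 RPKM. Egr2 and Inhba were below 1 RPKM in WT but not in Het or KO, and Atf3 was below it in WT and Het. All 41 genes reached 1 RPKM in at least 1 genotype.

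**Figure D1:**
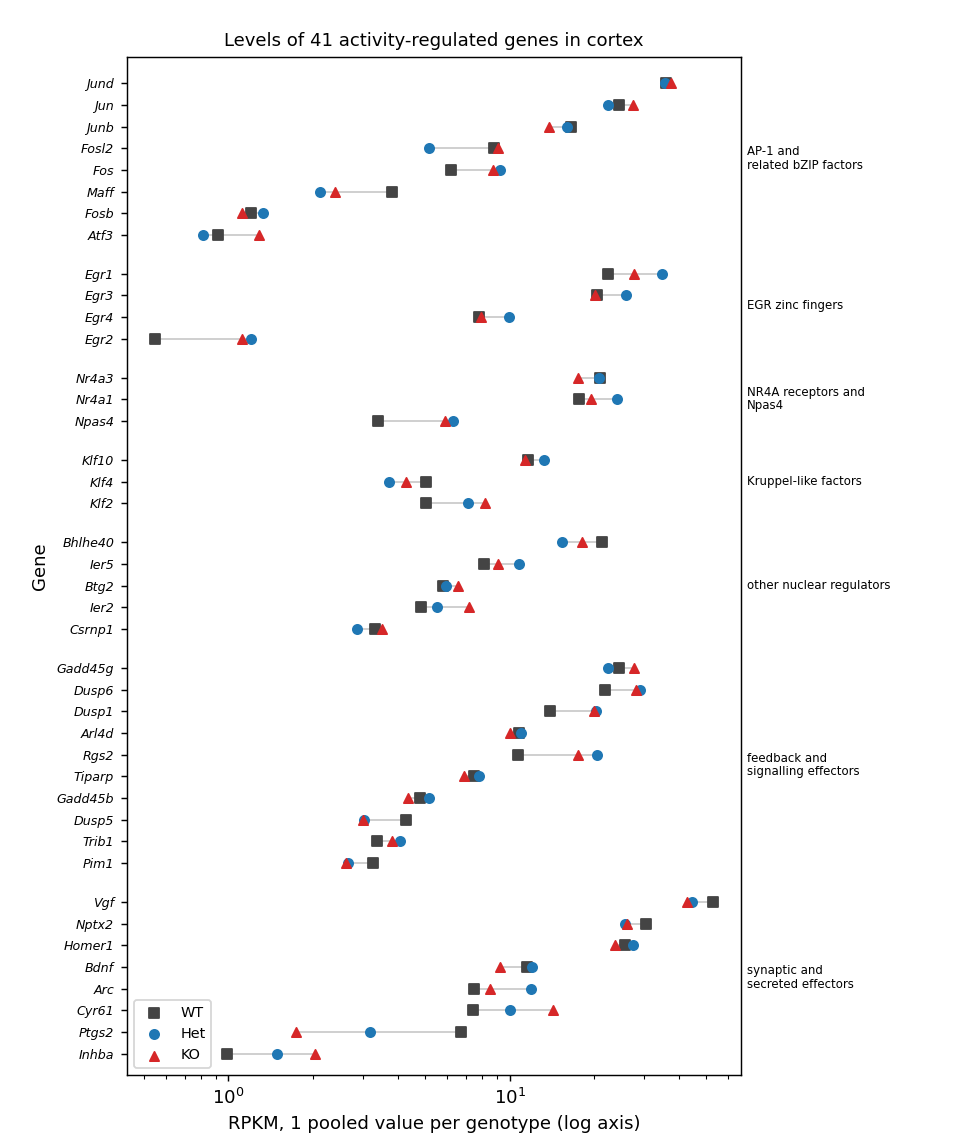
RPKM of the 41 genes in WT (squares), Het (circles) and KO (triangles) on a log axis, 1 pooled value per genotype, ordered within each role by WT level; grey lines span the 3 values. Ptgs2 spreads most, from 6.75 to 1.74 RPKM, while the 3 values of Jund lie between 35.6 and 37.6 RPKM.

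In Het cortex the factor genes Fos, Egr1, Egr2, Egr3, Npas4, Nr4a1 and Ier5 and the effector genes Arc, Dusp1, Dusp6 and Rgs2 rose, whereas Fosl2, Maff, Bhlhe40 and Ptgs2 fell. Of the 41 genes, 11 rose and 4 fell in the authors' deposited table of Het against WT. That is 26.8% and 9.76% of the genes, where 3.95% of all 14159 tested genes rose and 5.06% fell (9.00% in both directions). Among transcription factors and nuclear regulators 7 of 23 rose and 3 fell, and among effectors 4 of 18 rose and 1 fell. With q below 0.01 there were 6 that rose (2.24% of all tested genes), and with a minimum log2 difference of 0.5 there were 7 (1.96%).

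KO cortex, set against the same WT libraries, had 10 genes higher and 2 lower in the authors' deposited table. These are 24.4% and 4.88% of the 41, where 6.72% of all 14059 tested genes rose and 7.68% fell (14.4% in both directions). By class, 5 of 23 transcription factors and nuclear regulators rose and 1 fell, as did 5 and 1 of 18 effectors. With q below 0.01, 5 genes rose (3.54% of all tested genes) and 1 fell (4.58%). With a minimum log2 difference of 0.5, 5 rose (2.95%), and at 5 RPKM or more 1 fell (7.70%). Fos, Egr2, Npas4, Dusp1, Dusp6 and Rgs2 rose in both genotypes, which is 54.5% of the Het rises and 60.0% of the KO rises. Maff and Ptgs2 fell in both, 2 of 4 falls in Het and 2 of 2 in KO. The 2 comparisons share the WT value, so these overlaps are not independent counts. The same overlap over all tested genes was not computed, so it is not shown to be particular to these members. In all, 22 genes were called in neither, and the share of all tested genes called in neither was not computed.

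**Figure D2:**
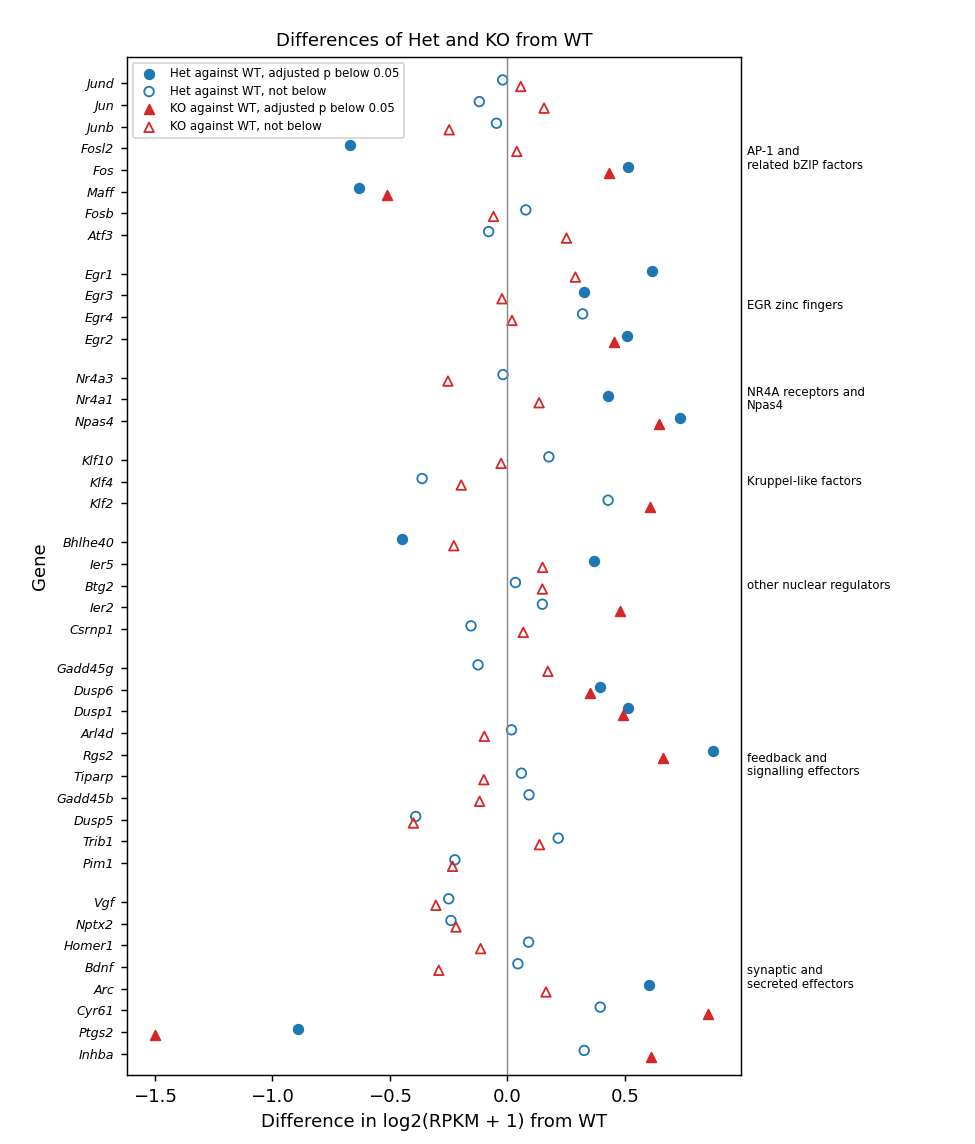
Difference in log2(RPKM + 1) of Het (circles) and KO (triangles) from WT for the 41 genes, filled where the authors' adjusted p is below 0.05. Filled symbols to the right number 11 in Het and 10 in KO; Ptgs2 lies farthest left, at -0.89 in Het and -1.50 in KO.

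Fos, the AP-1 subunit most used as a marker of recent activity, stood at 6.19 RPKM in WT, 9.28 in Het and 8.72 in KO. Both mutant values lay above WT, 1.50-fold (q 0.0121) and 1.41-fold (q 0.0315) in the authors' deposited tables. Fosb, its close relative, passed no test, with 1.20 RPKM in WT, 1.33 in Het and 1.12 in KO. Among the Jun partners, Jun stood at 24.5, 22.4 and 27.4 RPKM in WT, Het and KO, and Junb at 16.6, 16.0 and 13.8 RPKM. No Jun gene passed the test in any table. Fosl2, another Fos relative, behaved unlike Fos, with 8.79 RPKM in WT, 5.16 in Het and 9.07 in KO. Only Het was low, 1.70-fold below WT (q 0.00135 in the authors' deposited table), and KO was 1.03-fold above WT (q 0.890). Maff, a small Maf protein without an activation domain, fell from 3.82 RPKM in WT to 2.11 in Het and 2.38 in KO, with q 0.0181 and 0.0281 in the authors' deposited tables. Atf3, a stress-induced bZIP factor, was at 0.918 RPKM in WT, 0.815 in Het and 1.29 in KO and passed no test. Of these 8 AP-1 and related genes, 1 rose and 2 fell in Het, and 1 rose and 1 fell in KO. Over all tested genes 3.95% rose and 5.06% fell in Het, and 6.72% rose and 7.68% fell in KO.

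Of the 4 EGR genes, 3 rose in Het at q below 0.05 and 1 at q below 0.01, where 3.95% and 2.24% of all tested genes did. Egr1, a zinc finger factor tied to synaptic plasticity, stood at 22.4 RPKM in WT, 34.9 in Het and 27.6 in KO. The rise was 1.56-fold in Het (q 0.00135), and KO lay 1.23-fold above WT (q 0.0832) in the authors' deposited tables. Egr3 stood at 20.5 RPKM in WT, 25.9 in Het and 20.2 in KO, and passed the test in Het against WT (q 0.0405 in the authors' deposited table) but not in KO against WT. Egr4 had the same order as Egr1, at 7.76, 9.94 and 7.89 RPKM in WT, Het and KO, without passing the test (q 0.174 in Het in the authors' deposited table). Egr2 had the largest ratio of the family from the lowest level, 0.547 RPKM in WT, 1.20 in Het and 1.12 in KO. It rose 2.201-fold in Het (q 0.0282) and 2.04-fold in KO (q 0.0150) in the authors' deposited tables.

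Npas4, a factor induced by calcium entry in neurons, stood at 3.39 RPKM in WT, 6.31 in Het and 5.87 in KO. Its rise was 1.86-fold in Het (q 0.00135) and 1.73-fold in KO (q 0.000987) in the authors' deposited tables. These are the lowest q each table holds, shared with other members such as Rgs2 and Ptgs2. Nr4a1, an orphan nuclear receptor, stood at 17.7, 24.1 and 19.5 RPKM in WT, Het and KO, and rose in Het alone (q 0.009997 in the authors' deposited table). Nr4a3, of the same family, was at 21.0, 20.7 and 17.5 RPKM and passed no test. The NR4A genes therefore did not all share the Het rise.

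Among the Kruppel-like factors Klf2, known from endothelium under flow, stood at 5.04 RPKM in WT, 7.13 in Het and 8.20 in KO. It rose in KO (1.63-fold, q 0.00616) and missed the threshold in Het (q 0.0935) in the authors' deposited tables. Klf4 lay the other way, at 5.06, 3.72 and 4.29 RPKM, and Klf10, induced by TGF-beta, was at 11.6, 13.2 and 11.4 RPKM. Neither passed a test. Of the other nuclear regulators, Ier5 rose in Het, from 8.11 to 10.8 RPKM (q 0.0417 in the authors' deposited table), and stood at 9.11 in KO. Ier2 rose in KO, from 4.86 to 7.18 RPKM (q 0.0315 in the authors' deposited table), with Het at 5.50. Bhlhe40, a repressor tied to the circadian clock, was lowest in Het, at 15.4 RPKM against 21.4 in WT (q 0.00135 in the authors' deposited table) and 18.1 in KO. Btg2, an antiproliferative coregulator, and Csrnp1 stayed between 5.79 and 6.54 and between 2.87 and 3.52 RPKM.

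Among feedback and signalling effectors, 3 of 10 rose, in Het and KO alike, and none fell. Of all tested genes 3.95% rose in Het and 6.72% in KO. Rgs2, which shortens G-protein signals, stood at 10.7 RPKM in WT, 20.4 in Het and 17.5 in KO. This was the largest ratio among effectors in Het, 1.91-fold (q 0.00135), with 1.64-fold in KO (q 0.000987) in the authors' deposited tables. Dusp1, a nuclear phosphatase of MAP kinases, stood at 13.9 RPKM in WT, 20.3 in Het and 20.0 in KO. Dusp6, the cytoplasmic phosphatase of ERK, was at 21.9, 29.2 and 28.2 RPKM. In the authors' deposited tables q for Dusp1 was 0.00244 in Het and 0.00560 in KO, and for Dusp6 0.0107 and 0.0325. Dusp5, the nuclear phosphatase of ERK, lay the other way at 4.30, 3.04 and 3.02 RPKM and did not pass (q 0.322 and 0.172 in the authors' deposited tables). The other 6 had no call: the pseudokinase Trib1, the kinase Pim1, the ADP-ribosyltransferase Tiparp, the small GTPase Arl4d and the stress proteins Gadd45b and Gadd45g. Their mutant values lay between 0.805 and 1.21 times WT.

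Synaptic and secreted effectors had the widest spread. Arc, which removes AMPA receptors from synapses, stood at 7.48 RPKM in WT, 11.9 in Het and 8.51 in KO. Het was 1.59-fold above WT (q 0.00135), and KO lay 1.14-fold above it (q 0.448) in the authors' deposited tables. Bdnf, the neurotrophin, was at 11.6, 11.97 and 9.28 RPKM in WT, Het and KO. Nptx2 was at 30.6, 25.8 and 26.2 RPKM and Vgf at 52.9, 44.4 and 42.7. All 3 genes were lower in KO than in WT without passing the test, with q of 0.0956, 0.241 and 0.0637 in the deposited table of the authors for KO. The scaffold gene Homer1, whose short form is induced by activity, was at 25.8, 27.5 and 23.8 RPKM; the table does not separate its forms.

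Ptgs2, the inducible prostaglandin synthase, had the largest difference of all 41 genes, with 6.75 RPKM in WT, 3.18 in Het and 1.74 in KO. It fell 2.12-fold in Het (q 0.00135) and 3.88-fold in KO (q 0.000987) in the authors' deposited tables. Cyr61, a secreted matrix protein, ran in the opposite order, at 7.41 RPKM in WT, 10.1 in Het and 14.2 in KO. Its rise passed the test in KO (1.92-fold, q 0.000987) and missed it in Het (q 0.0692) in the authors' deposited tables. Inhba, which encodes the activin A subunit, was at 0.985, 1.49 and 2.03 RPKM and rose in KO (2.06-fold, q 0.0224 in the authors' deposited table). Of these 3 genes, only Ptgs2 passed the test in every comparison.

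Compared directly, KO and Het differed in 2 of the 41 genes. Fosl2 was higher in KO, 9.13 against 5.19 RPKM (1.76-fold), and Ptgs2 lower, 1.75 against 3.20 RPKM (1.83-fold), both at q 0.00517 in the authors' deposited table. Of all 14062 genes tested there, 0.917% rose and 0.953% fell (1.87% in both directions), against 2.44% of the 41 each way. With p-values adjusted over the 3 tables together, Cyr61 joined Fosl2 (2 higher, 1.57% of all tested genes) and Arc joined Ptgs2 (2 lower, 1.52%). At 5 RPKM or more 0 fell (1.12%). The genes that rose in Het alone did not differ between KO and Het at the threshold. In the table the authors deposited for KO against Het, q was 0.0800 for Arc, 0.148 for Egr3, 0.261 for Egr1, 0.406 for Nr4a1 and 0.631 for Ier5. For genes that rose in KO alone it was 0.0683 for Cyr61, 0.516 for Ier2, 0.746 for Inhba and 0.838 for Klf2 in the authors' deposited table. A call in 1 genotype alone is thus not shown to be a difference between Het and KO, and Fosl2 is the exception. By value alone, 12 genes had the order WT, KO, Het from low to high, among them Fos, Egr1, Egr2, Egr4, Nr4a1, Npas4 and Arc, and 5 had WT, Het, KO. The other orders were KO, WT, Het in 8 genes, Het, WT, KO in 6, KO, Het, WT in 6 and Het, KO, WT in 4. These orders include genes without a call, and their shares over all genes were not computed.

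**Figure D3:**
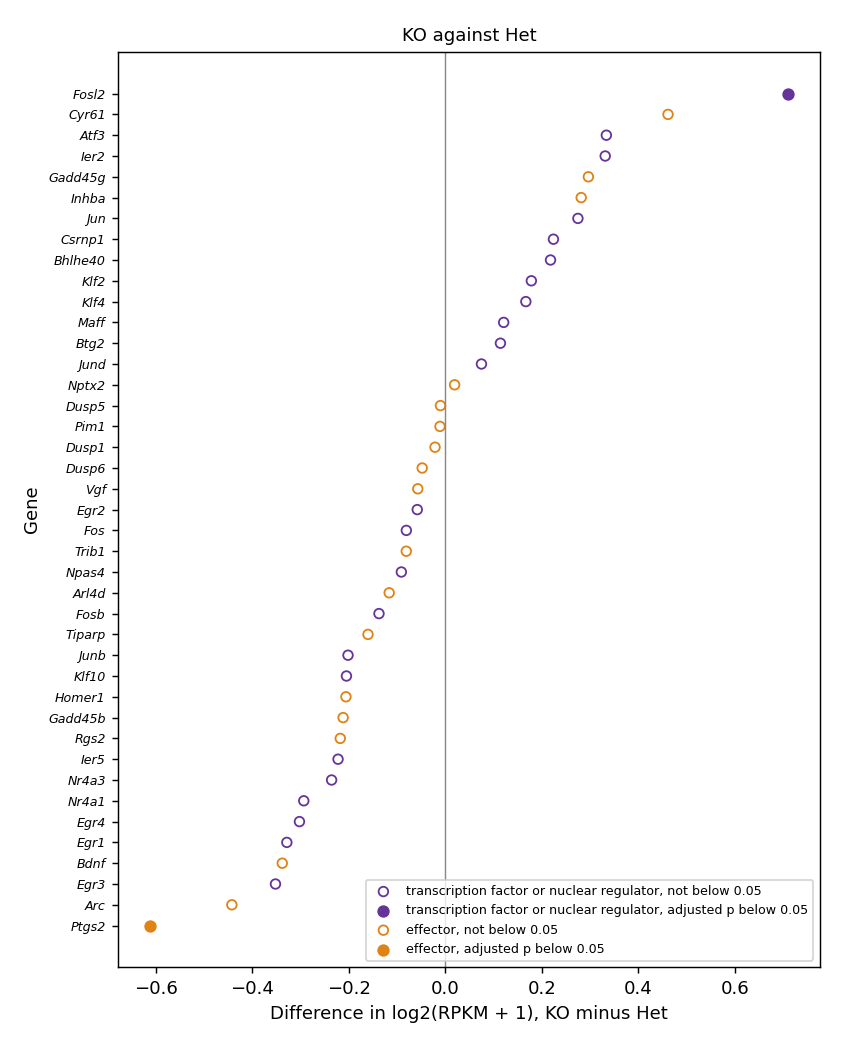
Difference in log2(RPKM + 1), KO minus Het, for the 41 genes in order, coloured by class and filled where the authors' adjusted p is below 0.05. Fosl2 at 0.71 and Ptgs2 at -0.61 are the filled points; 26 of 41 genes lie below 0.

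Set side by side, the factors and the effectors overlapped in every comparison. Over all 41 genes with no minimum level, the median log2 difference of Het from WT was 0.08 for both the 23 transcription factors and nuclear regulators and the 18 effectors. For KO from WT it was 0.07 and -0.10, and for KO from Het -0.06 and -0.07. Medians over all genes of at least 1 RPKM were 0.01, 0.01 and 0.00. Of the 18 effectors, 12 lay above 0 in Het and 8 in KO, while 13 and 15 of the 23 factors did. A gap was visible in narrower classes: the 9 factors Fos, Fosb, Junb, Egr1 to Egr4, Npas4 and Nr4a1 had a median of 0.43 in Het and 0.14 in KO. The 5 secreted or synaptic genes Bdnf, Homer1, Nptx2, Vgf and Inhba had 0.05 and -0.22. All 9 of these factors lay lower in KO than in Het, with a median of -0.20. These narrower classes were chosen with earlier results of these data known and leave out members such as Fosl2, Nr4a3, Arc and Cyr61. The gap can therefore not be told apart from the choice of genes. The difference between classes was not tested, since genes are not replicates.

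**Figure D4:**
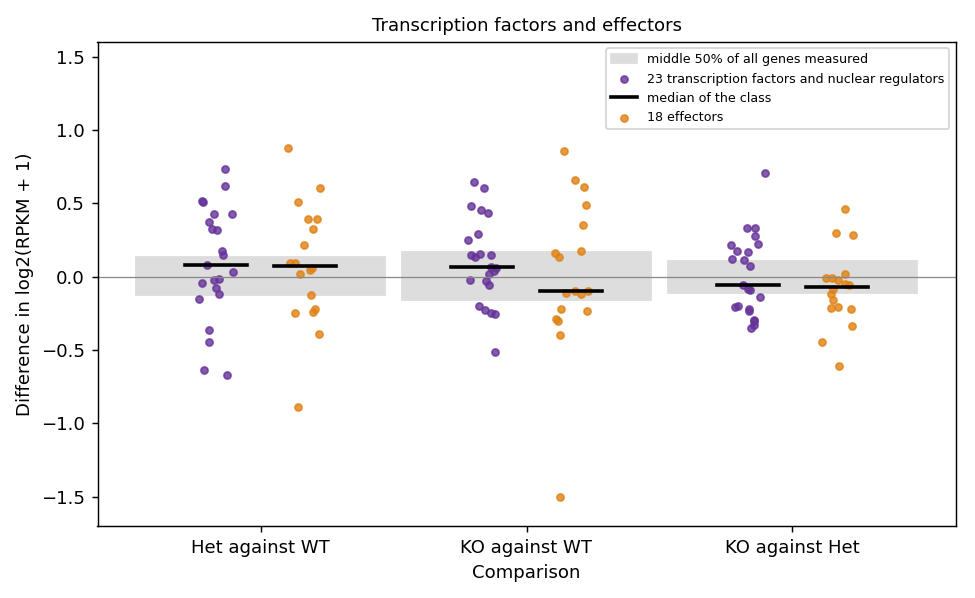
Differences in log2(RPKM + 1) of the 23 transcription factors and nuclear regulators and the 18 effectors in the 3 comparisons; black bars are class medians over all members and grey bands the middle 50% of all genes of at least 1 RPKM. Class medians lie between -0.10 and 0.08, inside the grey bands, with single genes well outside them.

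Of 50 upstream calcium, CREB, serum response factor and MAP kinase genes, all tested, 1 rose and 4 fell in Het, and 2 rose and 11 fell in KO. Over all tested genes 3.95% rose and 5.06% fell in Het (9.00% in both directions), and 6.72% rose and 7.68% fell in KO (14.4%). The Het count in both directions is close to its share. In KO the falls lay above their share and the rises below theirs. Mef2c, a calcium-regulated factor, rose from 22.0 RPKM to 37.3 RPKM in Het (q 0.00135) and to 29.1 RPKM in KO (q 0.00831) in the authors' deposited tables. Rasgrf1, a calcium-activated Ras exchange factor, fell from 78.6 RPKM in WT to 54.8 in Het (q 0.00135) and 52.7 in KO (q 0.000987) in the authors' deposited tables. Ntrk2, the BDNF receptor, fell from 87.9 to 65.3 RPKM in Het (q 0.00841) and 63.9 in KO (q 0.00386) in the authors' deposited tables. The ERK kinase gene Map2k1 fell in KO, from 98.2 to 63.1 RPKM (q 0.000987), and lay below Het too (q 0.00517) in the authors' deposited tables. The medians of the list were -0.04 in Het and -0.17 in KO.

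Genes of other cells and regions moved with the genotypes as well; over all tested genes 9.00% were called in Het, 14.4% in KO and 1.87% between KO and Het. All 12 markers of striatal projection neurons rose in Het and in KO, with summed levels of 65.3 RPKM in WT, 496 in Het and 511 in KO and none at 0. Of 8 choroid plexus markers 7 fell in each, from a sum of 2072 RPKM in WT to 290 in Het and 87.9 in KO. Most of that sum was Ttr, at 2027 RPKM in WT. Of 8 glucocorticoid-responsive genes, 6 fell in Het and 7 in KO, with sums of 901, 556 and 651 RPKM. Hippocampal markers rose in 3 of 7 in Het, and 3 of 7 fell from Het to KO, with sums of 140, 146 and 116 RPKM. Endothelial markers, given here because Klf2 and Cyr61 are also endothelial genes, fell in 4 of 10 in Het and 3 of 10 in KO, with 1 higher in each and sums of 113, 103 and 110 RPKM. Microglia markers had 3 of 8 higher and 3 lower in each genotype, with sums of 324, 263 and 265 RPKM. Cortical glutamatergic markers were present, led by Slc17a7 at 574 RPKM in WT, and 4 of 10 rose and 1 fell in Het, 3 and 1 in KO. Their sums were 822, 761 and 647 RPKM, but their median log2 differences were above 0, at 0.18 in Het and 0.15 in KO. Slc17a7 made up most of each sum, at 484 RPKM in Het and 393 in KO, where it fell (q 0.000987 in the authors' deposited table). None of these markers was at 0 in any genotype. In bulk tissue fewer cells and less RNA per cell cannot be told apart, and the part of these cell types in the differences of the 41 genes was not tested.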

How the data were processed

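Per the labels' protocols, TruSeq libraries were sequenced from both ends on an Illumina HiSeq instrument; per the submitters' processing notes, CASAVA 1.4, TopHat2 2.0.13, Cuffdiff 2.2.1 and build mm9 were used, without stated roles. The gene annotation is not given in the sources used here. The authors deposited 3 pairwise tables with 1 RPKM value per genotype, made from its 4 libraries, and, per the file headers, a p-value and a q-value for each gene. No column lacked a genotype (0). Genes with p equal to 1 were treated as untested, which left all 41 genes tested. Depth is unknown.

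No test was run here. Genes were called by the authors' q below 0.05; log2 differences use log2(RPKM + 1), which understates changes of low genes. Medians were planned over genes of at least 1 RPKM in either genotype. That minimum left out Atf3 in Het against WT, so medians over all members are printed. Members, lists, roles and tests were chosen with earlier results of these data known. Named genes are all 41 members, up to 4 called genes per comparison and direction of each other list by smallest q, the highest gene of each marker list and its largest called change, and Mir137. Promoters and miRNA came from RefSeq (GRCm38.p6) and 3′ UTRs, without stop codon, from GENCODE M21, matched by symbol; this build differs from mm9, so no coordinate was joined to the tables. Python 3.11.15, numpy 2.4.6, pandas 2.3.3 and matplotlib 3.10.9 were used. The 10 alternatives are given at the end.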

Additional observations from a re-analysis of the deposited data

Results flagged for a closer look

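The effect of Fosl2 differed between Het and KO in the authors' own test of those genotypes. The log2 difference of KO from Het was 0.71, with Het below WT (-0.67) and KO at it (0.04). Ptgs2 also differed, by -0.61, here with both genotypes below WT (-0.89 in Het and -1.50 in KO). These 2 genes were singled out because KO against Het tests the difference itself. The rule for single samples far from their group could not be applied, since each genotype has 1 pooled value.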

How the results depend on the processing

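No paired analysis was possible because the tables hold 1 pooled value per genotype, so neither a block by the numbers in the titles nor leaving out a library could be run. With q below 0.01, 6 members rose in Het, 5 rose in KO and 1 fell in KO (11, 10 and 2 at 0.05). With a minimum absolute log2 difference of 0.5, 7 rose in Het and 5 in KO. Among members of at least 5 RPKM, 1 fell in KO and 0 fell from Het to KO, since Ptgs2 lies under that level there. With p-values adjusted over the 3 tables together, 2 members were higher and 2 lower in KO than Het, Cyr61 and Arc being added. Class medians here are over genes of at least 1 RPKM. Narrow classes moved the median of the transcription factors in Het from 0.11 (0.08 with no minimum) to 0.43. In KO against Het it moved from -0.06 to -0.20, and that of effectors in KO from -0.10 to -0.22. These are fewer genes, chosen with earlier results of these data known. Pseudocounts of 0.1 and 0.01 and recentring cannot alter the authors' calls and moved the class medians by less than 0.1. Of 29 calls, 12 were lost at q below 0.01, 10 under the minimum difference and 6 under 5 RPKM. Low genes such as Egr2, Atf3, Fosb and Inhba rest on about 1 RPKM, and the depth behind them is unknown.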

Other observations

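A second list of 36 activity-regulated genes, outside the 41 and with 35 tested, had more falls than rises. In Het 3 rose and 9 fell, and in KO 5 rose and 8 fell, with median log2 differences of -0.14 and -0.15. Over all tested genes 3.95% rose and 5.06% fell in Het, and 6.72% rose and 7.68% fell in KO. Ier3, an early response gene tied to NF-kappaB, fell from 5.42 RPKM in WT to 1.83 in Het (q 0.00135) and 1.80 in KO (q 0.000987) in the authors' deposited tables. The C/EBP factor gene Cebpb fell from 5.86 to 2.67 and 2.62 RPKM at the same q values in the authors' deposited tables. The ERK feedback genes Spry2 and Dusp4 rose in both: Spry2 from 14.7 to 20.5 and 22.2 RPKM, and Dusp4 from 7.14 to 10.3 and 13.1 RPKM. For these, q in the authors' deposited tables was 0.0114 and 0.009997 in Het, and 0.000987 for both in KO.

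KO and Het differed in 5 of these genes in the authors' deposited table, where 1.87% of all tested genes differed. Nr4a2, the third NR4A receptor, stood at 18.1 RPKM in KO against 8.22 in Het (q 0.00517), unlike Nr4a1, and the kinase Sik1 at 6.45 against 4.36 (q 0.0154). Lower in KO in the authors' deposited table were Dusp14 at 18.8 against 29.0 RPKM and the membrane-anchored neuritin gene Nrn1 at 87.2 against 131 RPKM, both at q 0.00517. The dexamethasone-induced Ras gene Rasd1 stood at 9.88 against 19.1 RPKM (q 0.0312 in the authors' deposited table). WT levels were 10.8 RPKM for Nr4a2, 4.07 for Sik1, 18.6 for Dusp14, 135 for Nrn1 and 22.7 for Rasd1. Against WT, Nr4a2 and Sik1 rose and Nrn1 and Rasd1 fell in KO (q 0.000987 for each in the authors' deposited table). Dusp14 rose in Het (q 0.00135 in the authors' deposited table).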
